A study of Mus musculus with 6 samples.

Results

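The genes described here are 10 members of the interleukin-6 cytokine system: the cytokines Il6, Lif and Osm, the receptor chains Il6ra, Il6st, Lifr and Osmr, the transcription factor Stat3, and the feedback inhibitors Socs1 and Socs3. They were measured with oligonucleotide arrays in primary mouse microglia, the macrophages of the brain, grown in culture. Every probe set (a group of short probes for a transcript) whose platform annotation named exactly 1 of these symbols was taken, which gave 24 of the 45037 probe sets that were not controls. The 10 genes all had at least 1 probe set. The arrays came from 3 cultures labelled Dap12-ko, called Dap12-deficient here, and 3 labelled wt, called wild-type, with 1 array per culture. Dap12, encoded by Tyrobp, is a membrane adaptor through which receptors of myeloid cells signal to the kinase Syk. No treatment is named in the labels, and the strain, age and sex of the mice, the allele and the purity of the cultures are nowhere stated in the labels used here. The titles carry 1 number for 2 of the cultures (wild-type array 2 and Dap12-deficient array 3) and a pair of numbers for the other 4, without saying what the numbers stand for.

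Cytokines of this family signal through the shared receptor chain gp130, encoded by Il6st. Interleukin-6 first binds its own receptor chain, encoded by Il6ra, leukaemia inhibitory factor brings in the chain encoded by Lifr, and oncostatin M in the mouse acts mainly through the chain encoded by Osmr. Janus kinases bound to these chains phosphorylate STAT3, which enters the nucleus and switches on target genes. Socs3 is among those targets, and its protein binds gp130 and blocks the kinases, which closes a negative feedback loop. SOCS1 limits Janus kinases too, above all after interferon. In the brain, microglia are a source of interleukin-6 and oncostatin M, and astrocytes respond to the family through gp130 and STAT3.

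STAT factors are known to act on Socs3, and NF-kB and AP-1 factors on cytokine genes. The stretches below are shown because they hold the letters of such motifs next to a transcript start of Socs3, Il6 and Lif. RefSeq promoter windows (GRCm38.p6, from 250 bases before to 50 bases after a transcript start) were found for 9 of the 10 genes, all but Osm. Both strands were searched for the STAT motif TTCNNNGAA, the AP-1 motif TGANTCA, the cyclic AMP response element TGACGTCA and the NF-kB motif. Capitals mark the match.

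Socs3 (chr11:117969502-117969530, minus strand): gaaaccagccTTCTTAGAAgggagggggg

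Il6 (chr5:30013060-30013089, plus strand): tatcaaatgtGGGATTTTCCcatgagtctc

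Lif (chr11:4257330-4257356, plus strand): cagtcagctgTGACTCAggccatagtg

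The STAT motif in Socs3 began 154 bases before the start of its window's transcript. The RefSeq span of Socs3 reaches farther upstream, so this stretch lies before 1 transcript start and inside the annotated gene. Among the 9 members with a window, Socs3 was the single gene with this motif, which 8.3% of all 32851 windows hold. The NF-kB motif began 44 bases before the start of Il6, outside the annotated gene. Il6 was again the single member, against 4.51% of all windows. The AP-1 motif was found in Il6, Lif and Osmr, in Lif 228 bases before the start, and in 7.81% of all windows. The cyclic AMP response element was in 0 of the 9 members and in 1.79% of windows. The matches printed above did not overlap other matches, and they are letters in a window, not measured binding.

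The values are linear signals that had been scaled to the same target on each array. Median signals were 11.9 to 14 on wild-type arrays and 14.5 to 16.4 on Dap12-deficient arrays. Since no label ties a culture to particular mice, the tests measure the spread between cultures, and having 3 arrays a group limits their precision. Tyrobp, the gene that the Dap12-deficient label names, had signals of 5584, 7271 and 5396 on the wild-type arrays and 125, 96.4 and 96.2 on the Dap12-deficient arrays, which matched the labels. Macrophage markers were bright in sum on every array, with summed signals of 10 markers from 23691 to 31184 in wild-type cultures against 18544 to 26747 in Dap12-deficient ones. In mean log2(signal + 16), 9 of the 10 were lower in Dap12-deficient cultures and 1 higher, with a median difference of -0.27. Other brain cells were present too. Summed signals of 10 astrocyte markers ran from 842 to 1010 in wild-type cultures against from 1123 to 1775 in Dap12-deficient ones. All 10 were higher on average in the Dap12-deficient cultures. The sum of 1123, on Dap12-deficient array 2, held 660 from S1pr1 alone. In the mean log2 level of 5 astrocyte genes without S1pr1, that array was the lowest of all, at 6.21. Summed signals of 11 oligodendrocyte markers ran from 7622 to 11096 in wild-type cultures and from 3768 to 8868 in Dap12-deficient ones. Mbp alone gave 3839 to 5535 and 358 to 4714 of these. In mean log2(signal + 16), 9 of the 11 were lower in Dap12-deficient cultures and 2 higher. The lineage genes Olig1 (0.07), Olig2 (0.08) and Pdgfra (-0.06) differed little. None of these 31 markers was listed at 0. The sum over 6 fibroblast markers was 97.8 to 208 in wild-type cultures against 124 to 175 in Dap12-deficient ones. The sum hides opposite directions, since 5 of the 6 were higher on average and 1, Postn, was lower. Postn gave 105, 34.6 and 83.6 in wild-type cultures against 27.3, 32.7 and 17.7. The Y-linked genes Eif2s3y, Kdm5d and Uty were lower on all 3 Dap12-deficient arrays, with summed signals of 88.4 to 234 against 708 to 781. In such bulk RNA, fewer cells of a type and less RNA per cell cannot be told apart.

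Of the 24 probe sets, 18 had a mean signal of at least 8.51, the 40th percentile of all probe sets, and were tested. They covered 9 genes. Socs1, a second probe set of Lif, and 1 set of Il6st, 1 of Lifr and 2 of Osmr were too dim. For 1 tested set, the dimmest of Il6st, the wild-type mean alone would have fallen short of that signal, so its pass rested on the Dap12-deficient arrays. Differences below are Dap12-deficient minus wild-type in log2(signal + 16), a scale that shrinks differences of dim probe sets.

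None of the 18 tested probe sets changed by the threshold used. In limma, 0 passed a Benjamini-Hochberg adjusted p of 0.05, against 0.0074% of all 27022 probe sets tested, and the adjusted p of the members lay between 0.371 and 0.999. The count was also 0 without an intensity trend in the variance. At an unadjusted p under 0.05 there were 4 members, all higher in Dap12-deficient cultures, which is 22.2% beside 10.7% of all probe sets. They were sets of Lif, Il6ra, Il6st and Stat3, and the set of Il6st is the one that passed the filter through its higher group. Without it there were 3 of 17 (17.6%). With each gene taken by its brightest tested set, 1 of 9 member genes (11.1%, Lif) had an unadjusted p under 0.05, beside 9.63% of all genes. Of the 17 sets, 2 (11.8%), of Lif and Stat3, had every Dap12-deficient array above every wild-type array, beside 9.6% of all probe sets. Both tested sets of Lifr (11.8%) had every array below, beside 6.89%. The median difference was 0.30 over the 17 sets and 0.03 over all tested probe sets, with 12 sets higher and 5 lower. With the arrays set to a common median, the median of all probe sets moved by -0.18. Among all 18 members 12 were then higher and 6 lower, 1 lay above, beside 3.85% of all probe sets, and 3 below, beside 18.6%. The 1 above was the set of Il6st that passed the filter through its higher group. The 3 below were Osm and both tested sets of Lifr. The 2 with an unadjusted p under 0.05 were then the sets of Lifr, beside 15.1% of all probe sets. The count at an unadjusted p under 0.05 was 0 without wild-type replicate 3, beside 7.23% of all probe sets. It was 1 without wild-type replicate 2 and 1 without Dap12-deficient replicate 3, beside 8.79% and 9.09%. Without Dap12-deficient replicate 3 the 1 set was again that set of Il6st, so this count supports no difference. The count without overlap was 9 without wild-type replicate 1 and 9 without Dap12-deficient replicate 2, where 24.4% and 31.2% of all probe sets did not overlap.

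**Figure D1:**
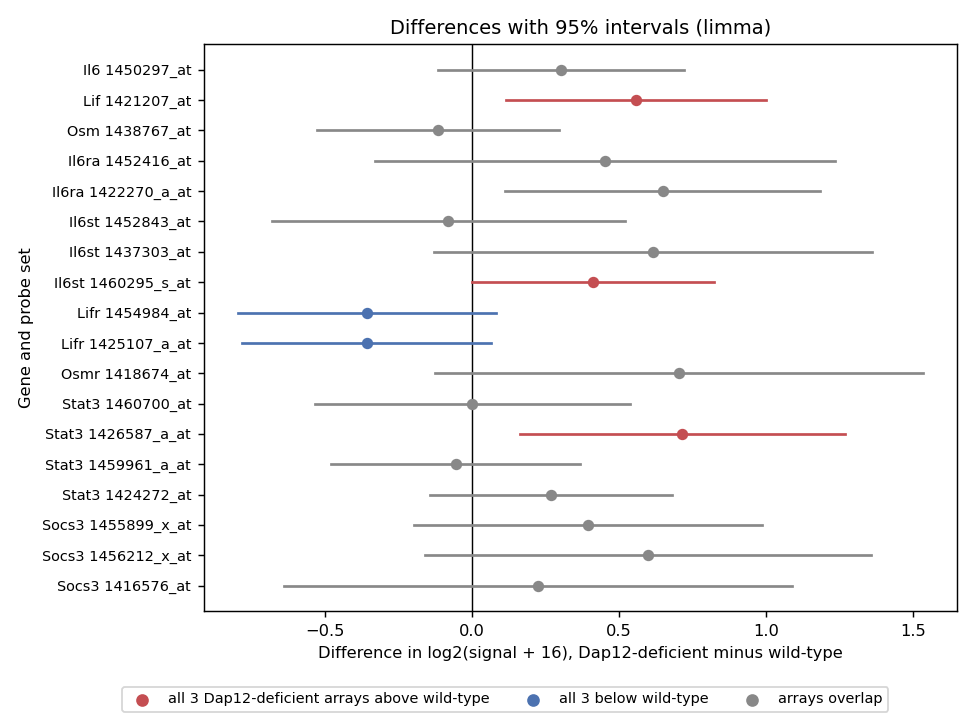
Difference in log2(signal + 16) between Dap12-deficient and wild-type cultures (x axis) for each tested probe set (y axis), with 3 arrays a group; points are fitted differences and lines are 95% intervals of the limma fit. Colours mark sets whose arrays did not overlap between the groups: Lif, 1 set of Stat3 and the set of Il6st that passed the filter through its Dap12-deficient arrays lie above, and both sets of Lifr lie below.

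Of the 3 cytokines, Osm was bright and the other 2 were dim. Osm, the oncostatin M gene, gave 1245, 1458 and 1228 on the wild-type arrays and 1102, 1421 and 1115 on the Dap12-deficient arrays. Dap12-deficient arrays 1 and 3 lay below all wild-type arrays and array 2 lay among them. The difference was -0.12 (SE 0.19, 95% interval -0.53 to 0.30, limma adjusted p = 0.853). The mean signals were 1310 ± 129 (SD, n = 3) and 1213 ± 180 (SD, n = 3). Its mean signal over the 6 arrays exceeded that of 97.1% of all probe sets. Probe sets differ in how well they bind, so signals of different sets do not rank transcripts.

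Lif, which encodes leukaemia inhibitory factor, had the clearest separation among the cytokines. Its brighter set gave 15.1, 9.60 and 11.2 in wild-type cultures against 31.3, 17.6 and 27.4 in Dap12-deficient ones. All 3 Dap12-deficient arrays lay above the highest wild-type array. The means differed 2.12-fold, and the difference was 0.56 (SE 0.20, 95% interval 0.11 to 1.0, limma adjusted p = 0.377). With a common median of the arrays the groups overlapped, and the difference was 0.42. The second set, too dim to test, gave 5.27, 1.20 and 1.45 against 18.8, 8.78 and 0.69. There the groups overlapped, since Dap12-deficient array 3 was the lowest of all 6.

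Il6 itself lay close to the median of the arrays. Its signals were 17.0, 11.2 and 13.8 in wild-type cultures against 25.5, 16.2 and 21.6 in Dap12-deficient ones. Dap12-deficient arrays 1 and 3 lay above all wild-type arrays, and array 2 was just below wild-type array 1. The difference was 0.30 (SE 0.19, 95% interval -0.12 to 0.72, limma adjusted p = 0.597). Il6 and Lif kept the same order of arrays within the Dap12-deficient group, with array 1 highest and array 2 lowest, and within the wild-type group, with array 1 highest and array 2 lowest. Detection calls were not used here, so that whether the lowest signals of these 2 dim genes lie above background was not measured.

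**Figure D2:**
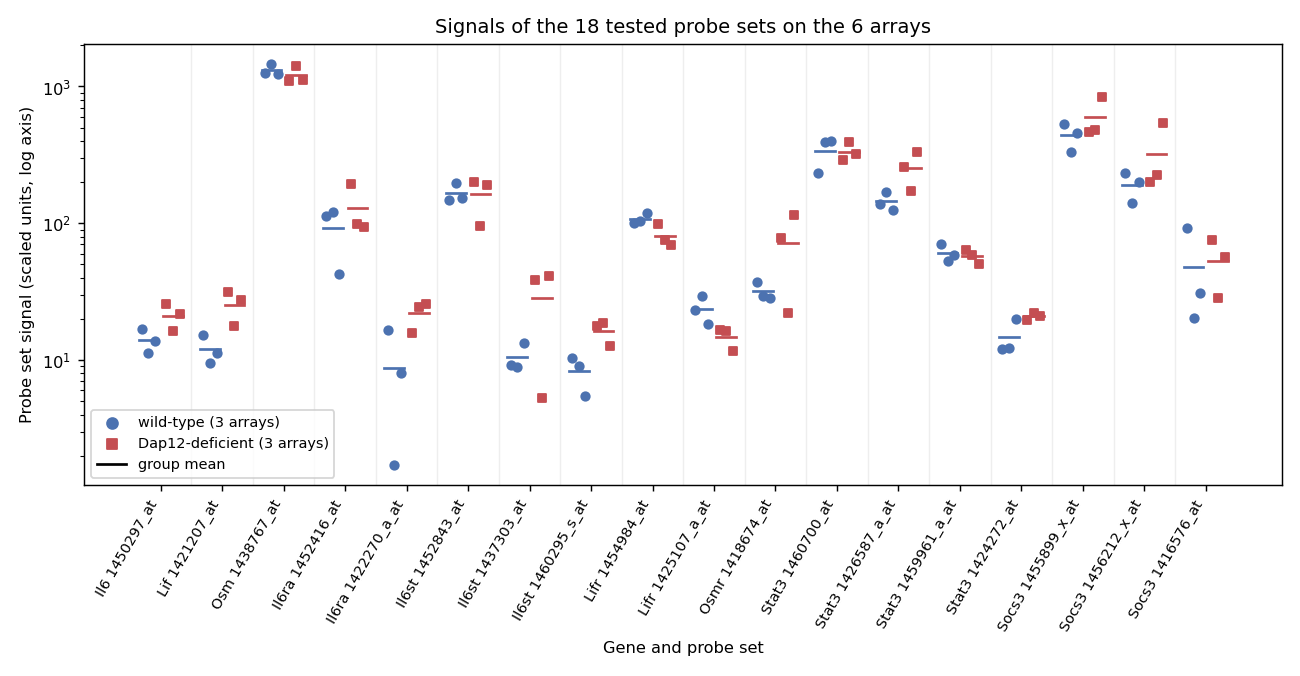
Signal in scaled units on a log axis (y) of each of the 18 tested probe sets (x); points are single arrays, circles wild-type and squares Dap12-deficient, and short lines are arithmetic means of 3 arrays. Osm is the brightest set at 1102 to 1458, Lif and Il6 stay under 32, and the Dap12-deficient points of Osmr spread from 22.1 to 114.

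No probe set of the receptor chains passed the threshold. Lifr, the chain for leukaemia inhibitory factor, had lower signals in Dap12-deficient cultures in both tested sets. The brighter gave 100, 105 and 119 in wild-type cultures against 99.3, 74.9 and 69.4 in Dap12-deficient ones. The groups did not overlap, but Dap12-deficient array 1 and wild-type array 1 were nearly equal. The difference was -0.36 (SE 0.20, 95% interval -0.80 to 0.08, limma adjusted p = 0.552). The dimmer tested set gave 23.1, 29.5 and 18.4 against 16.6, 16.3 and 11.6, again without overlap and with a difference of -0.36 (SE 0.19, adjusted p = 0.537). Both sets also lay below wild-type after quantile normalization and with a common median, where the differences were -0.58 and -0.49. The remaining set of Lifr had signals of 0.95 to 10.9 and overlapped. The ligand Lif and its receptor chain Lifr thus had differences of opposite sign, neither past the threshold.

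Osmr, the oncostatin M receptor chain, had its widest spread among the Dap12-deficient arrays. Its tested set gave 37.5, 29.3 and 28.5 in wild-type cultures. The Dap12-deficient arrays gave 78.0, 22.1 and 114, so that arrays 1 and 3 lay far above wild-type and array 2 below all of it. The means were 31.8 ± 5.01 (SD, n = 3) and 71.5 ± 46.5 (SD, n = 3), and the difference was 0.71 (SE 0.38, 95% interval -0.12 to 1.54, limma adjusted p = 0.537). The difference depended on single Dap12-deficient arrays, with 1.22 without replicate 2 (adjusted p = 0.0514) and 0.33 without replicate 3 (adjusted p = 0.775). The other 2 sets of Osmr stayed at or below 13.4 on every array and overlapped.

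Il6st, the gp130 chain shared by the family, was not alike across its probe sets. The brightest gave 148, 199 and 153 in wild-type cultures against 201, 95.7 and 192 in Dap12-deficient ones, with a difference of -0.08 (SE 0.27, 95% interval -0.68 to 0.52, limma adjusted p = 0.937). Dap12-deficient array 2 was the lowest of all. A second, dimmer set again had that array lowest, but there Dap12-deficient arrays 1 and 3 both lay above all wild-type arrays. This second set gave 9.17, 8.96 and 13.4 against 38.5, 5.29 and 41.3. Its difference was 0.62 (SE 0.34, adjusted p = 0.547), and 1.08 without Dap12-deficient replicate 2 (adjusted p = 0.0514). It was 0.37 without replicate 3 (adjusted p = 0.755) and 0.40 without replicate 1 (adjusted p = 0.724). The third, whose name marks probes that can bind several transcripts, gave 10.4, 9.07 and 5.42 against 17.8, 18.6 and 12.6. It reached the filter through the Dap12-deficient arrays alone, so these signals are a description and support no difference. The fourth set, not tested, lay between 1.66 and 15.03 and overlapped.

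Il6ra, which encodes the interleukin-6 binding chain, was higher on average in both of its sets. The brighter gave 113, 122 and 42.9 in wild-type cultures against 195, 98.9 and 94.4 in Dap12-deficient ones. Dap12-deficient array 1 was the highest and wild-type array 3 the lowest, while the other 4 lay between 94.4 and 122. The difference was 0.45 (SE 0.35, 95% interval -0.33 to 1.24, limma adjusted p = 0.671). It was 0.06 without wild-type replicate 3 and 0.15 without Dap12-deficient replicate 1. The dimmer set gave 16.5, 1.71 and 8.03 against 15.9, 24.3 and 25.6, with a difference of 0.65 (SE 0.24, adjusted p = 0.390). Its groups overlapped, since Dap12-deficient array 1 lay below wild-type array 1. The arrays took a different order in the 2 sets.

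Stat3, the transcription factor of the pathway, was measured by 4 sets that gave different answers. The brightest gave 232, 390 and 399 in wild-type cultures against 290, 391 and 319 in Dap12-deficient ones. All 3 Dap12-deficient values lay within the wild-type range, and the difference was 0.00 (SE 0.24, 95% interval -0.54 to 0.54, limma adjusted p = 0.999). It turned to -0.24 with a common median of the arrays. The second set gave 139, 169 and 125 against 257, 171 and 334. Every Dap12-deficient array was above wild-type, array 2 by the least, and the difference was 0.71 (SE 0.25, 95% interval 0.16 to 1.27, adjusted p = 0.371), the smallest p among the members. With a common median of the arrays its groups overlapped, and the difference was 0.48. The third gave -0.06 (SE 0.19, adjusted p = 0.937) with overlapping arrays between 50.7 and 70.7. The dimmest gave 11.96, 12.3 and 20.1 against 19.5, 22.1 and 20.9 and a difference of 0.27 (SE 0.19, adjusted p = 0.630). Where on the transcripts of Stat3 these sets bind was not examined here.

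Socs3, the inhibitor that STAT3 induces, was higher on average in all 3 of its sets, and a single array stood out. The brightest gave 532, 331 and 455 in wild-type cultures against 465, 478 and 839 in Dap12-deficient ones, a difference of 0.39 (SE 0.27, 95% interval -0.20 to 0.99, limma adjusted p = 0.624). The second gave 232, 141 and 200 against 200, 225 and 545, a difference of 0.60 (SE 0.34, adjusted p = 0.566). On both, Dap12-deficient array 3 was the highest of the 6 and arrays 1 and 2 lay within the wild-type range. Without that array the differences were 0.12 and 0.17. The names of both sets mark probes that can bind other transcripts. The third and dimmest, without that mark, gave 92.0, 20.3 and 31.1 against 75.2, 28.2 and 56.7. There wild-type array 1 was the highest, and the difference was 0.22 (SE 0.39, adjusted p = 0.866). The STAT motif shown for Socs3 stands beside these values as sequence, and STAT3 binding was not measured.

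Socs1 was near the bottom of the arrays. Its single set gave 0.33, 2.34 and 0.34 in wild-type cultures against 1.36, 9.68 and 6.55 in Dap12-deficient ones, below the signal needed for the test. On average it was brighter than 19.2% of all probe sets, and the groups overlapped. A feedback response through Socs1 therefore could not be read from these arrays.

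Levels of astrocyte genes differed between the cultures of a group. The mean log2 signal of 5 astrocyte genes (Aldoc, Aqp4, Gja1, Slc1a2 and Slc1a3) was 6.60, 6.24 and 6.52 in wild-type cultures against 6.87, 6.21 and 7.58 in Dap12-deficient ones. Dap12-deficient array 3 was thus the highest, array 1 the next and array 2 the lowest. Osmr, the second set of Il6st and the second set of Stat3 had the same order within the Dap12-deficient group, which makes 3 of 18 members beside 13.1% of all probe sets. None of these 3 sets had the astrocyte order among the wild-type arrays. There 7 of 18 members had it, beside 14.7% of all probe sets. They were Il6, the brighter set of Lif, the dimmer set of Il6ra, the third of Stat3 and all 3 of Socs3. Gfap, the intermediate filament gene of reactive astrocytes and a STAT3 target, gave 74.7, 28.5 and 53.2 against 96.7, 15.3 and 237. With the astrocyte mean as a term in the model, the difference of Osmr was 0.17 (limma adjusted p = 0.888), that of the second set of Il6st 0.19 (adjusted p = 0.886) and that of the second set of Socs3 0.18 (adjusted p = 0.896). Under the same term the second set of Stat3 had 0.48, the brighter set of Lif 0.43 and the brighter set of Lifr -0.33. The same term turned the small differences of Osm (0.01) and of the dimmest set of Socs3 (-0.09). Which cells held these transcripts was not tested.

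Lifr did not follow the astrocyte order, since its lowest array was Dap12-deficient array 3. The mean log2 signal of 5 myelin genes (Mag, Mbp, Mobp, Mog and Ugt8a) was 8.99, 7.98 and 9.21 in wild-type cultures against 8.52, 6.68 and 5.80 in Dap12-deficient ones. Both tested sets of Lifr had the myelin order within the Dap12-deficient group, from array 1 down to array 3, as did 4 of 18 members and 20.4% of all probe sets. Neither set of Lifr had the myelin order among the wild-type arrays. There 1 of 18 members had it, the second set of Il6st, beside 15.8% of all probe sets. With the myelin mean as a term, the brighter set of Lifr had a difference of -0.11 (limma adjusted p = 0.885) and the dimmer tested set -0.34 (adjusted p = 0.607), and the brighter sets of Socs3 had 0.17 and 0.12. The part of myelin-forming cells in these values was not tested.

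The lower Y-linked signals of the Dap12-deficient cultures, given above, separate the groups without overlap, so a term for them and the group can hardly be told apart. With their mean log2 level in the model, the differences of Il6 (-0.10), Osm (0.04), the brighter set of Il6ra (-1.37), the third of Il6st (-0.03) and the dimmest of Socs3 (-1.26) turned sign. Those of Lif (0.14), Osmr (0.92), Lifr (-0.95 and -0.70) and the second set of Stat3 (1.12) kept theirs. The brighter set of Il6ra moved most, from 0.45 to -1.37. The second set of Socs3 went from 0.60 to 2.29 (unadjusted p = 0.0211, limma adjusted p = 0.541), and 0 members passed the threshold. Xist, which is expressed from the inactive X chromosome, gave 251, 277 and 1164 in wild-type cultures against 2514, 2483 and 1228. The part of sex in these differences was not tested.

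**Figure D3:**
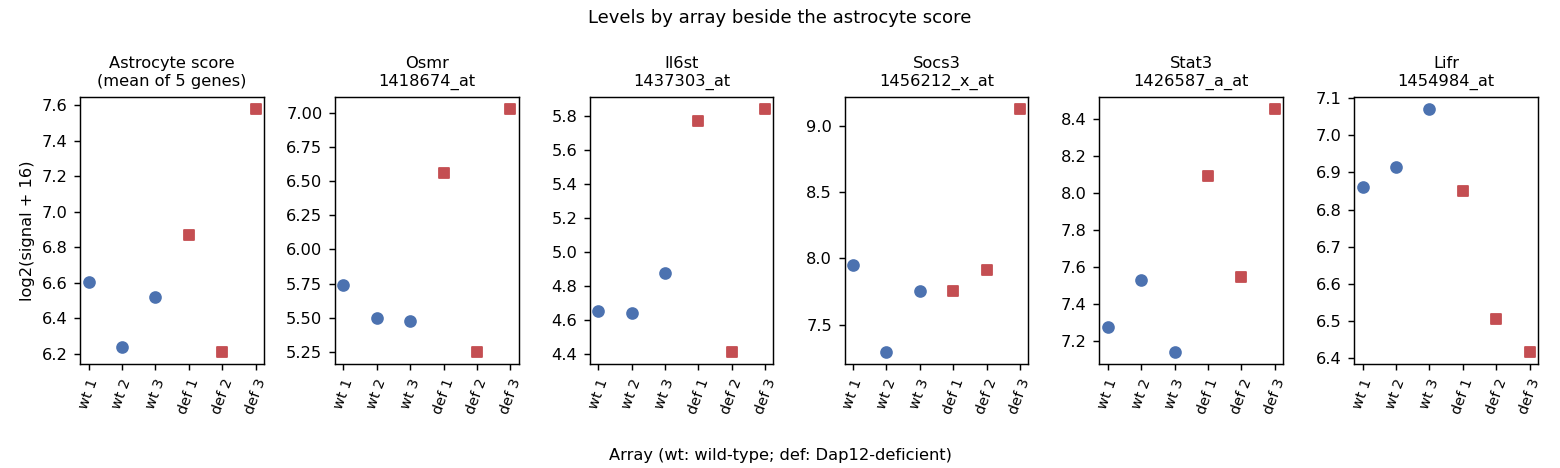
Level in log2(signal + 16) on each array (x axis) for the mean of 5 astrocyte genes and for single probe sets of Osmr, Il6st, Socs3, Stat3 and Lifr; circles are wild-type and squares Dap12-deficient arrays, and each panel has its own y range. In the astrocyte, Osmr, Il6st and Stat3 panels Dap12-deficient array 3 is highest and array 2 is the lowest of its group, while in the Lifr panel array 3 is the lowest of all.

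Other genes of the pathway were taken from lists, each gene by its brightest tested probe set, and 0 of the 60 genes tested passed the threshold in limma in either direction, also without the intensity trend. At an unadjusted p under 0.05 there were 11 (18.3%), 10 higher and 1 lower, beside 9.63% of all genes taken in this way. The lists were chosen with earlier results of these data known, so this count supports no difference. Of 5 further cytokines and receptor chains of the family, 4 were higher and 1 lower, with a median of 0.17. Ctf1, which encodes cardiotrophin 1, had the smallest p, with 15.6, 13.7 and 7.57 against 23.0, 20.8 and 16.7 (0.36, SE 0.19, adjusted p = 0.537). Of 8 Janus kinases and other STAT factors, 3 were higher and 5 lower, with a median of -0.08, and the smallest p was that of Stat5b (-0.56, SE 0.27, adjusted p = 0.493). The median over all 12875 genes taken in this way was -0.03.

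Among 14 further inhibitors of cytokine signalling, 5 were higher and 9 lower, with a median of -0.09. Cish, a SOCS family member induced by STAT5, gave 30.9, 29.2 and 27.3 against 59.1, 38.9 and 49.5, so that all Dap12-deficient arrays lay above wild-type (0.52, SE 0.19, limma adjusted p = 0.388). Ptpn6, the phosphatase SHP-1, lay below on all 3 arrays, at 446 ± 91.8 (SD, n = 3) against 680 ± 113 (SD, n = 3). The remaining SOCS genes Socs2, Socs4, Socs5, Socs6 and Socs7 had differences between -0.21 and 0.21, and their groups overlapped.

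Of 20 known targets of STAT3, 13 were higher and 7 lower, with a median of 0.10. An unadjusted p under 0.05 was found for 4 of the 20, all higher. Of all genes 9.63% had such a p, and 4.76% had it and were higher. This list too was chosen with earlier results known, so the count supports no difference. Pim1, a survival kinase, gave 115, 111 and 92.7 against 233, 143 and 487 (1.15, SE 0.35, limma adjusted p = 0.337). Dap12-deficient array 3 was the highest and array 2 the lowest of its group, as for Osmr. Cebpb, a transcription factor that itself acts on Il6, gave 358, 642 and 620 against 901, 792 and 985, without overlap (0.75, SE 0.24, adjusted p = 0.354). The transglutaminase gene Tgm2 had 0.47 (SE 0.18) without overlap, and the growth factor Vegfa 0.54 (SE 0.24) with overlap. Other targets went the other way or stayed close to 0, among them Myc (-0.40), Junb (-0.37), Bcl3 (0.02) and Cebpd (-0.03). Every Dap12-deficient array of Myc lay below wild-type, while Junb, Bcl3 and Cebpd overlapped. Myc, Junb, Bcl3 and Cebpd were named after their values were seen.

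Of 6 genes that raise or degrade the Il6 transcript, 4 were higher and 2 lower, with a median of 0.59. An unadjusted p under 0.05 was found for 3 of the 6, beside 9.63% of all genes. The list was chosen with earlier results of these data known, so this count supports no difference. Since the list mixes genes that raise with genes that degrade the transcript, its median gives no direction for Il6. Nfkbiz, a nuclear partner of NF-kB needed for Il6 induction, gave 531, 405 and 459 against 911, 842 and 1058 (0.99, SE 0.19, limma adjusted p = 0.260). Every Dap12-deficient array was well above the wild-type range. The NF-kB subunit Rel had 0.64 (SE 0.21) and Arid5a, which stabilises the Il6 transcript, 0.60 (SE 0.22), both without overlap. Rela, another NF-kB subunit, had -0.28 (SE 0.25), Zc3h12a 0.59 (SE 0.32) and Zfp36 -0.22 (SE 0.21), all with overlap. These 3 were named after their values were seen. Of 5 tested inducing cytokines 4 were higher and 1 lower, with a median of 0.42. Il1a had 0.96 (SE 0.20) without overlap and Tnf 0.82 (SE 0.35) with overlap, while Il1b had 0.42, Ifnb1 0.05 and Il10 -0.23. The 2 proteases that release the interleukin-6 receptor from the cell surface had 0.22 for Adam17 (SE 0.18) and 0.15 for Adam10.

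**Figure D4:**
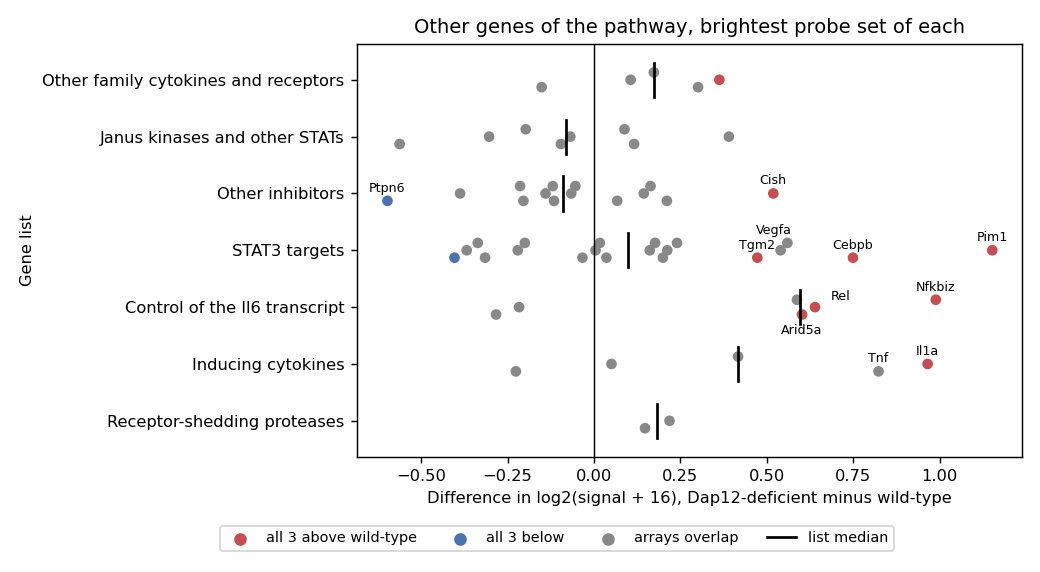
Difference in log2(signal + 16) between Dap12-deficient and wild-type cultures (x axis) for genes of 7 pathway lists (y axis); each point is a gene, black bars are list medians, colours mark genes whose arrays did not overlap, and names mark an unadjusted p under 0.05. The list that controls the Il6 transcript has the highest median, 0.59, and the Janus kinase list has a median of -0.08. The first of these lists mixes genes that raise with genes that degrade the transcript.

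For the 3 members with the smallest p in their brightest set, the genes with the most similar levels over the 6 arrays were found by the root mean square difference of log2 values, each centred on its mean. For Lif these were Zdhhc20, Ptar1 and Bsdc1, at 0.05, 0.05 and 0.07 log2 units, where Lif itself varied by 0.33 about its mean. Lifr, which varied by 0.23, was nearest to Acer3, Atl1 and Uba6, at 0.05, 0.05 and 0.06. For Osmr, which varied by 0.64, the nearest were Ammecr1l, the fibril-associated collagen gene Col12a1 and Dclk1, at 0.15, 0.15 and 0.17. Col12a1 gave 2.70, 1.20 and 0.42 in wild-type cultures against 26.3, 1.28 and 42.5 in Dap12-deficient ones. With 6 arrays and 12875 genes such neighbours are a description of these arrays only.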

How the data were processed

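Per the labels' protocols, total RNA (Trizol, then RNeasy) of 6 microglial cultures received a biotin label in a kit of 2 amplification cycles. The authors deposited linear probe set intensity values, and the submitters' processing notes name GCOS without a version. Its settings: not given in the sources used here. The mean after trimming 2% at each end was 100.0 on every array. Groups came from the labels, and numbers within a group follow the order of deposit.

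After 64 controls were left out, 34945 probe sets had 1 symbol, 932 several and 9160 none. Probe sets at or above the 40th percentile of the mean were tested on log2(signal + 16) with limma 3.58.1 in R 4.3.3 (lmFit, eBayes with trend, two-sided, Benjamini-Hochberg over 27022 probe sets). The fit was tested on simulated data. No 2 arrays shared a value in any probe set. Members, lists and terms were chosen with earlier results of these data known. Named were all members, Tyrobp and the nearest genes in pattern. Of each other list, up to 4 genes with an unadjusted p under 0.05 or else the smallest p were named. Chosen after their values were seen were Gfap, S1pr1, Adam10, the other SOCS genes, the sex-linked genes, Il1b, Ifnb1, Il10 and those so marked. So were Mbp, Olig1, Olig2, Pdgfra and Postn. Plots used matplotlib 3.10.9 in Python 3.11.15.

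Alternatives tried were quantile normalization, a common median, pseudocounts of 1 and 64, testing every probe set, a filter at the 60th percentile, no trend, no _s_at or _x_at sets, terms for title number, sex, astrocyte and myelin genes, and leaving out each array.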

Additional observations from a re-analysis of the deposited data

How the results depend on the processing

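Under the 18 alternatives, 0 member probe sets passed the threshold in any, and of 314 values of single member sets 295 kept their sign. All probe sets past the threshold numbered 2 at first, 5 with a common median, 11 with the sex term, 5 with the myelin term, and 2 to 172 when an array was left out, with 172 without Dap12-deficient replicate 2 and 15 without Dap12-deficient replicate 1. Member sets at an unadjusted p under 0.05, 4 at first, numbered 2 with a common median (15.1% of all probe sets), 1 with the filter at the 60th percentile (11 member sets tested, 10.9% of all), 1 with the sex, the astrocyte and the myelin term each (8.34%, 6.82% and 14.1% of all), and 0 to 4 when an array was left out. Member sets without overlap, 5 at first (16.5% of all probe sets), numbered 2 with the filter at the 60th percentile (16.9% of all). When an array was left out they numbered 5 to 9 (24.4% to 31.2% of all). The 5 include that set of Il6st.

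Of the 18 tested sets, 8 changed sign under at least 1 alternative. The brightest set of Stat3 (0.00) gave -0.00275 with a pseudocount of 64, -0.24 with a common median, -0.17 with the myelin term and -0.24 to 0.13 when an array was left out. The third of Stat3 gave 0.12 with the myelin term and -0.13 to 0.0354 when an array was left out. With the sex term Il6 gave -0.10, Osm 0.0403, the brighter set of Il6ra -1.37, the third of Il6st -0.0302 and the dimmest of Socs3 -1.26, and with the astrocyte term Osm gave 0.00553 and the dimmest of Socs3 -0.0939. When an array was left out, the brightest set of Il6st ran from -0.25 to 0.23 and the dimmest of Socs3 from -0.10 to 0.69. The cause was not tested. Signal over background is unknown, which limits Il6, Lif, Socs1 and the dim sets of the receptors.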
